A study of Mus musculus with 9 samples.

Results

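Reissner's membrane of adult mice was compared between tissue kept for 24 h as explants without any drug (3 arrays, incubated) and tissue taken straight to RNA extraction (3 arrays, fresh). These 6 arrays belong to a set of 9 Affymetrix arrays, and the remaining 3, from explants given dexamethasone (a synthetic glucocorticoid) at 100 nM for 24 h (the label of 2 of these arrays gives the dose in mM, the study's design in nM), entered the estimate of spread. The labels gave no strain or sex and named no genetic change, and all 3 groups were dissected free-hand from mouse cochleae. Membranes were pooled to obtain enough RNA and 3 chips were used for each biological sample, so the p-values measure the spread between chips of pooled tissue, which may be technical, and the number of arrays limits the precision. The labels describe the organ culture as free of proliferation. All genes were considered, without a pathway chosen in advance: a gene was included where a non-control probe set with 1 gene symbol reached a signal of 200, the working floor, on at least 3 of the 6 arrays. This held for 10108 of 18194 genes on the array, each represented by its brightest probe set.

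Reissner's membrane is the thin partition of the cochlea that separates the potassium-rich endolymph of the scala media from the perilymph of the scala vestibuli. It is made of a sheet of ion-transporting epithelial cells facing the endolymph and a sheet of flat mesothelial cells facing the perilymph, with a basement membrane between them. It abuts the spiral ligament, whose fibrocytes move potassium through connexin channels, and the spiral limbus, and it lies close to hair cells, the stria vascularis, bone and the neurons of the spiral ganglion. The epithelial sheet is known for absorbing sodium from the endolymph under glucocorticoid control.

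Culture was accompanied by a shift over most of the measured transcriptome. Of 10108 genes, 3624 were called higher (35.9%) and 4158 lower (41.1%) after 24 h at an adjusted p under 0.05 in limma, a linear model with a shared estimate of spread. Changes of 2-fold or more were found for 726 genes upward (7.18%) and 1308 downward (12.9%), and of 4-fold or more for 129 upward (1.28%) and 461 downward (4.56%). All folds and log2 changes are on the scale of log2(signal + 32), which understates the change of dim genes. Among the 8513 genes at 200 or more on all 6 arrays, which did not enter through 1 group alone, the calls were nearly even, with 3222 higher (37.8%) and 3125 lower (36.7%), and 513 of these rose and 583 fell 2-fold. At 4-fold, 48 of them rose and 91 fell. Genes under the floor in 1 group made up most of the 4-fold falls, 355 of 461: 818 genes were at 200 or more on the fresh arrays alone and 251 on the incubated arrays alone. Such genes passed the filter through the group in which they were high, so their direction is fixed by the filter and their number, not their direction, is the measurement.

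These counts depend on how the arrays are scaled to each other. The authors scaled every array to the same trimmed mean signal, under which the 18 hybridization control probe sets, which report RNA added at a fixed amount, were all lower on the incubated arrays (median log2 difference -0.36, range -0.47 to -0.13). Scaling to those controls instead moved the median log2 change of all genes from -0.04 to 0.29. It moved the share of calls that were higher from 46.6% to 69.1%, and from 35.7% to 62.5% among 2-fold changes. Directions below are those of the deposited scaling, and the text says where the control scaling turns the balance of a list or a named gene. Over all 10108 genes the control scaling gave 5566 higher and 2485 lower, which is the background for every list count given under it. The balance of a list can turn there together with that of all genes. Pearson's r of log2 signals across tested probe sets was 0.992 to 0.993 within groups and 0.828 to 0.829 between them. The median SD of log2 signal was 0.0852 over the fresh and 0.0897 over the incubated arrays. The probe sets used for Acaa2, Acsl3, Adgrg6, Aldh18a1, Bbs4, Car14, Ccn1, Dmp1, Eif4ebp1, Foxo1, Gpm6a, Hpgd, Iars, Ndrg4, Nhp2, Rps29, Rrm2, S100a8, Sesn1, Tspan14, Ttr and Ucma are marked by the manufacturer as possible matches to several transcripts, and their values are uncertain to that extent.

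**Figure D1:**
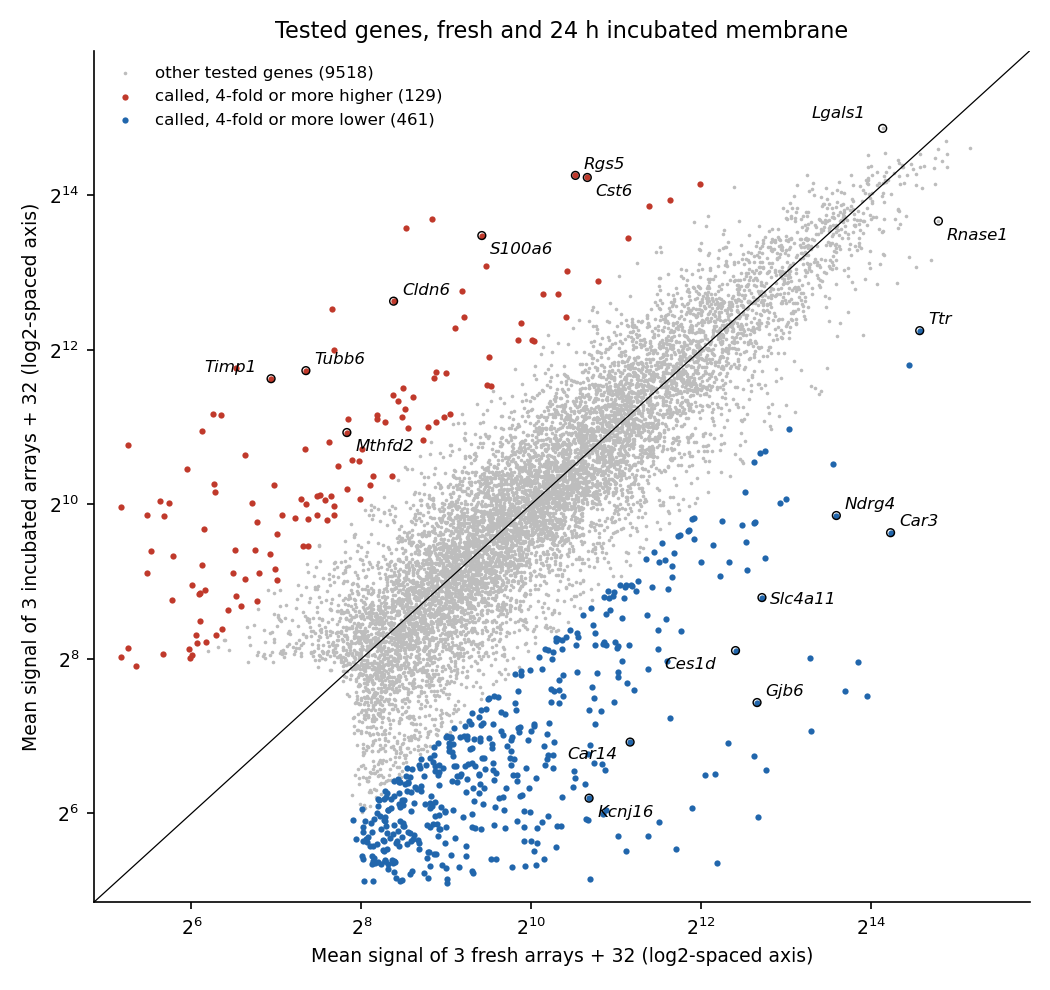
Mean signal of the 3 incubated arrays against the mean of the 3 fresh arrays for 10108 genes, both plus 32 on log2-spaced axes, with a line of equal signal. Red points mark the 129 genes called 4-fold or more higher and blue points the 461 called 4-fold or more lower; most blue points lie at incubated signals near or under the floor of 200.

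RNA integrity measures also moved with culture. The ratio of the 3' to the 5' control probe set of Gapdh was 6.91, 7.53 and 6.91 on the fresh arrays and 3.87, 3.46 and 3.88 on the incubated arrays. For beta actin it was 3.97, 4.12 and 4.26 against 1.96, 1.86 and 1.91. Neither ratio overlapped between the groups, and both were higher on the fresh arrays. The same transcript then gave different changes by probe position: beta actin had a log2 change of -0.28 at its 3' end, 0.30 in the middle and 0.82 at its 5' end. The part of transcript length or position in the genes below was not tested.

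**Figure D2:**
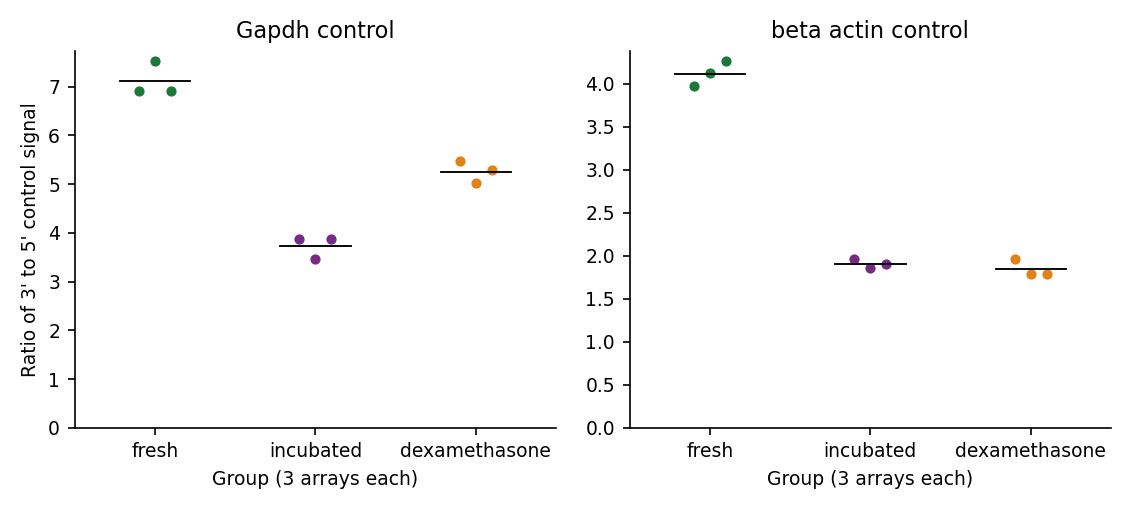
Ratio of the 3' to the 5' control signal of Gapdh and beta actin on each of the 9 arrays, with a line at the mean of the 3 arrays of a group. Fresh arrays had Gapdh ratios of 6.91 to 7.53 and incubated arrays 3.46 to 3.88.

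The largest rises among genes measured on all 6 arrays joined junction, calcium-binding, signalling and secreted proteins. Cldn6, a claudin of tight junctions in embryonic-type epithelia, had signals of 283, 313 and 308 on fresh arrays A, B and C and 6508, 6072 and 6356 on the incubated arrays. That is a log2 change of 4.25 ± 0.0536 (SE, adjusted p = 2.04e-14, limma). S100a6, a small calcium-binding protein, went from 664, 581 and 713 to 10335, 12453 and 11406, a log2 change of 4.06 ± 0.0785 (adjusted p = 4.71e-13). In both genes, every incubated array was far above every fresh array. Rgs5, which speeds the GTPase of G protein alpha subunits and is best known from pericytes, was already bright in fresh tissue at 1497, 1439 and 1379.8, and read 19631, 19526 and 19570.1 after culture. Its log2 change was 3.74 ± 0.0458 (adjusted p = 2.01e-14). Cst6, an inhibitor of lysosomal cysteine proteases and of legumain, rose from 1624, 1571 and 1570.0 to 20227, 18169.8 and 19245, a log2 change of 3.57 ± 0.0569 (adjusted p = 1.03e-13). The incubated arrays of Rgs5 and Cst6 lay far above their fresh arrays, with no overlap.

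Receptors and signalling genes stood beside them. Tnfrsf12a, the receptor of the cytokine TWEAK, read 713, 656 and 661 in fresh and 8963, 8174 and 8876 in incubated tissue (log2 change 3.62 ± 0.0560, adjusted p = 9.05e-14). The other 4 members of its superfamily that passed the filter comprised 2 that rose, the decoy receptor Tnfrsf11b (1.08, log2) and Tnfrsf1a (0.76), and 2 that fell, Tnfrsf19 (-1.06) and Tnfrsf21. Ccn1, a secreted matrix protein induced by YAP and by serum, had 585, 551 and 522 and then 5954, 6786 and 7955, with the widest spread of these genes on the incubated arrays (log2 change 3.56 ± 0.110, adjusted p = 2.24e-11). Cited1, a transcriptional co-regulator without DNA-binding activity of its own, rose from 573, 489 and 620.4 to 5914, 5230.3 and 5199 (log2 change 3.21 ± 0.0843, adjusted p = 5.36e-12). None of these groups of arrays overlapped.

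Csf1, the growth factor of macrophages, rose by 2.93 ± 0.0657 on the log2 scale, from 259, 237 and 279.9 to 2103, 2146 and 2277 (adjusted p = 1.46e-12). Its receptor Csf1r, a macrophage marker, fell by 1.11, from a mean of 2986 ± 91.4 to 1365 ± 92.7. Chrnb1, the beta subunit of the muscle-type nicotinic receptor, read 308, 251 and 221 and then 2161, 2323 and 2288 (log2 change 2.98 ± 0.0959, adjusted p = 3.32e-11). Eif4ebp1, which holds back cap-dependent translation until mTOR phosphorylates it, rose by 3.01 ± 0.0872, from 339.6, 316 and 326 to 2659.8, 2593 and 3394 (adjusted p = 1.28e-11). The remaining rises among the 15 largest were Anxa3, Lgals3, Cldn4, Fos and Slco2a1.

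**Figure D3:**
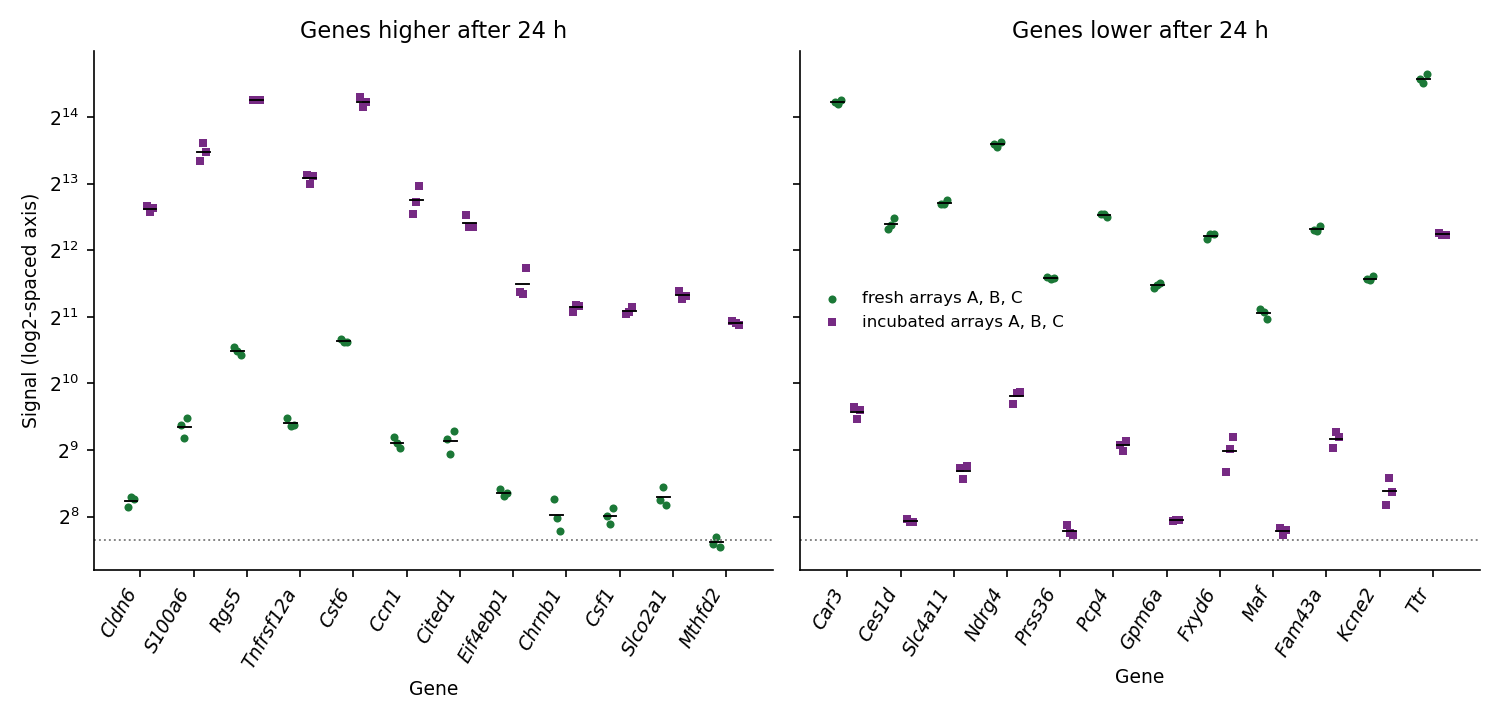
Signal on each fresh array (green circles) and incubated array (purple squares) for 12 genes that rose and 12 that fell, on a log2-spaced axis, with a line at each group mean and a dotted line at the floor of 200. In every gene shown the 3 fresh and 3 incubated arrays lie on separate levels, and Mthfd2 is the gene whose fresh arrays lie closest to the floor.

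A second set of genes was under the floor on all 3 fresh arrays and bright after culture. For these the fold is a lower bound, the incubated mean over the floor of 200, and no p-value is given, since the filter and the choice of genes fix the direction. Tubb6, a beta tubulin isotype, read 127, 128 and 138 in fresh and 3448, 3341 and 3320.0 in incubated tissue, at least 16.8-fold higher. Timp1, a secreted inhibitor of metalloproteinases, read 75.5, 77.6 and 119 and then 3253, 2962 and 3181, at least 15.7-fold higher. The incubated arrays of both genes stood well clear of the floor. Prg4, the boundary lubricant of joint surfaces known as lubricin, was just under the floor at 131, 190.4 and 172 and reached 1839, 1716 and 1735, at least 8.82-fold higher. Maff, a small basic leucine zipper factor, went from 37.6, 21.8 and 29.1 to 1473, 1351 and 1307, at least 6.88-fold higher. Relb, a subunit of the non-canonical NF-kB pathway, went from 105, 89.9 and 85.4 to 1122, 1295 and 1149, at least 5.94-fold higher. Msln, or mesothelin, a surface protein of mesothelial cells, read 36.2, 42.0 and 57.0 and then 1199.7, 1167 and 1241, at least 6.01-fold higher. Saa3, an acute-phase apolipoprotein, read 55.3, 25.5 and 55.2 and then 1033, 1152 and 1139, at least 5.54-fold higher.

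The promoters of the strongest rises were read for short motifs, in windows from 250 bases before to 50 after each RefSeq transcript start (GRCm38.p6). The AP-1 motif TGACTCA, whose reverse complement is TGAGTCA, was searched on both strands. It was present in at least 1 window of 16 of the 95 genes called 4-fold higher that had a promoter entry (16.8%). The share was 5.03% of 358 genes called 4-fold lower, 4.40% of 8228 tested genes and 5.20% of all 32851 windows. AP-1 is the dimer of Fos and Jun family proteins, and this motif is its classical binding sequence. Stretches of 61 bases or fewer from 5 of these promoters are shown because the motif lies in them and the genes belong to the groups described here; capitals mark the motif and each is read 5′ to 3′ on the gene's strand.
F3 (chr3:121723375-121723435, plus strand, motif starting 135 bases before the transcript start): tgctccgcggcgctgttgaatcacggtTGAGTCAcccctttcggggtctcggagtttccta
Cldn4 (chr5:134947141-134947184, minus strand, motif starting 240 bases before the transcript start): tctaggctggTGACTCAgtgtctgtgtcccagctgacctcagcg
Sprr1a (chr3:92485994-92486054, minus strand, motif starting 146 bases before the transcript start): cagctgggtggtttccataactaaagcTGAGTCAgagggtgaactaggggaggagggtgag
Cd68 (chr11:69666286-69666346, minus strand, motif starting 149 bases before the transcript start): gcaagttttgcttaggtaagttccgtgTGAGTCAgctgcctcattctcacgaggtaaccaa
Plaur (chr7:24462387-24462447, plus strand, motif starting 69 bases before the transcript start): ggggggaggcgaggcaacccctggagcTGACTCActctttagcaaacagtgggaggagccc
F3, tissue factor, starts blood coagulation, Cldn4 is a tight junction claudin and Plaur is the receptor of urokinase. Sprr1a encodes a precursor of the cornified envelope and Cd68 a lysosomal glycoprotein of macrophages. For Cldn4, Sprr1a and Cd68 a further copy of the motif lay in the window and is not shown. A match is a description of letters and not a site of binding. Other motifs, also searched on both strands, were closer to their share over tested genes. TATAA was held by 26.3% of the 4-fold higher, 23.5% of the 4-fold lower and 15.8% of tested genes. The glucocorticoid receptor motif AGAACA was held by 11.6%, 20.7% and 14.3% in the same order, and the E-box CACGTG by 13.7%, 8.66% and 12.1%. The interferon response motif gave 11.6%, 6.42% and 6.25%, the NF-kB motif 21.1%, 14.2% and 12.4% and the CArG box 3.16%, 2.51% and 1.68%. Of all windows, 24.9% held TATAA, 19.0% AGAACA, 7.15% CACGTG, 6.27% the interferon response motif, 8.46% the NF-kB motif and 1.63% the CArG box.

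Genes of protein synthesis rose together. Each gene list is described below by its members at 200 or more on all 6 arrays, against 37.8% higher and 36.7% lower over all genes so measured and a median log2 change of 0.01. The 18 cytosolic tRNA synthetases on the array, which charge tRNAs with amino acids, all met this and were all called higher, with a median log2 change of 0.96. Vars, the valine enzyme, read 386, 375 and 422 in fresh and 1290.5, 1165 and 1148 in incubated tissue (log2 change 1.53 ± 0.0711, adjusted p = 9.07e-10). The isoleucine, methionine and threonine enzymes Iars, Mars1 and Tars rose by 1.21, 1.19 and 1.12.

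Ribosome biogenesis moved the same way. All 45 listed genes on the array passed the filter, and of the 40 at 200 or more on all 6 arrays, 37 rose and 2 fell (median 0.88). Nhp2, a core protein of the box H/ACA particles that guide pseudouridylation, rose from 1284, 1241 and 1472 to 5829.7, 5407 and 5246 (log2 change 2.02 ± 0.0641, adjusted p = 2.87e-11). Utp18, of the small subunit processome, and Bysl, needed for small subunit maturation, rose by 1.65 ± 0.153 and 1.60 ± 0.122. The family of translation initiation factors had 46 of 47 members at 200 or more on all 6 arrays, of which 29 rose and 6 fell (median 0.36). Eif6, an anti-association factor of the large subunit, rose by 1.53 and Eif4e2, a cap-binding protein, by 1.46. Under the scaling to hybridization controls the counts among members that passed were 43 higher and 1 lower for ribosome biogenesis and 41 higher and 1 lower for initiation factors.

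Nuclear transport and nucleotide synthesis followed. Of 21 genes of nuclear import and export (22 on the array, all past the filter) measured on all 6 arrays, 20 rose and 1 fell (median 0.54). The importin Ipo5 had 1549.7, 1475 and 1419 in fresh and 5779.9, 4984 and 5154 in incubated tissue (log2 change 1.82 ± 0.0633, adjusted p = 6.58e-11). Ranbp1, a cofactor of the Ran GTPase, and the importin alpha Kpna2 rose by 1.32 and 1.18. Of 21 genes of nucleotide and serine synthesis so measured (25 on the array, 23 past the filter), 15 rose and 2 fell (median 0.50). Mthfd2, the mitochondrial folate enzyme, had fresh signals at the floor, 193, 207 and 187, and incubated signals of 1952, 1921 and 1887 (log2 change 3.10 ± 0.0576). Only fresh array B reached the floor, so Mthfd2 passed the filter mainly through the incubated arrays and no p-value is given. Its partner Mthfd1l, with fresh array B under the floor, rose by 2.38, and Ctps, which makes CTP, by 2.13. Rrm2, the regulated subunit of ribonucleotide reductase used in DNA synthesis, fell by 1.21 ± 0.0958, from 718, 683 and 718 to 274, 313 and 278. Srm, spermidine synthase, rose by 2.06 ± 0.0701, while the other 6 polyamine genes, all so measured, held 2 rises, 2 falls and 2 without a call. The 2 falls, Oaz1 (-0.22) and Oaz2 (-0.32), both antizymes, turn to 0.13 and 0.03 under the control scaling.

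**Figure D4:**
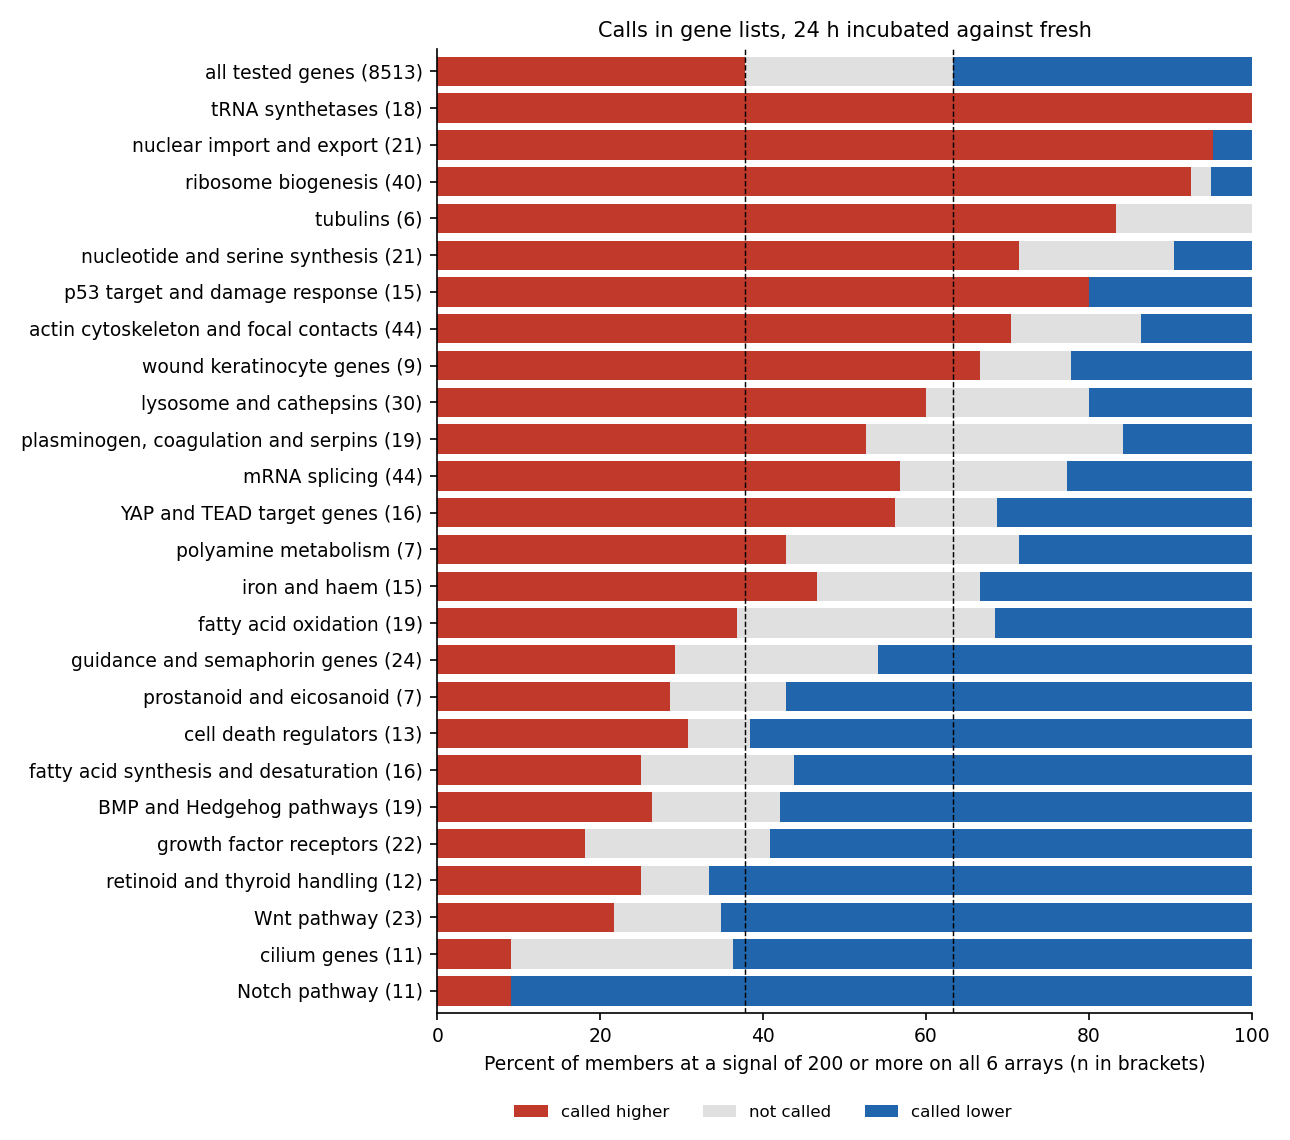
Share of the members of each of 25 gene lists called higher, called lower or not called, among members at a signal of 200 or more on all 6 arrays, with the number in brackets; the top bar and the dashed lines give all 8513 genes so measured. The tRNA synthetase, nuclear transport and ribosome biogenesis bars are almost wholly red, and the Notch pathway bar holds 1 rise and 10 falls.

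The cytoskeleton and adhesion machinery shifted upward. Of 44 genes of the actin cytoskeleton and focal contacts measured on all 6 arrays (46 on the array, 45 past the filter), 31 rose and 6 fell (median 0.53). Pdlim7, a scaffold of actin stress fibres, read 339, 333 and 360.4 in fresh and 1886, 1903 and 2217 in incubated tissue (log2 change 2.43 ± 0.0756, adjusted p = 2.39e-11). Msn, or moesin, which ties actin to the plasma membrane, rose from 503, 516 and 508 to 2117, 2002 and 2121 (log2 change 1.96 ± 0.0703, adjusted p = 8.37e-11). Tagln2, an actin-binding protein of many tissues, rose by 2.12 ± 0.0693, and Tagln, its smooth muscle relative, reached a mean of 542 ± 52.5 from under the floor, at least 2.71-fold higher.

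Tubulins split by isotype. Tubb5 and Tubb4b, found in most cells, rose from 4249.5, 4299 and 4369.6 to 14180.0, 12736 and 14017 and from 5108, 5061 and 4591 to 12810.3, 11944 and 11306 (log2 changes 1.65 ± 0.0533 and 1.28 ± 0.0588). Tubb3, the neuronal isotype, read 247, 228 and 268 in fresh tissue and 0.8, 22.8 and 10.9 after culture, at least 1.24-fold lower. Of 6 tubulins measured on all 6 arrays (11 on the array, 9 past the filter), 5 rose and 1 was not called. Target genes of YAP and TEAD, the effectors of the Hippo pathway, gave 9 rises and 5 falls among 16 so measured (22 on the array, 19 past the filter, median 0.38). Beside Ccn1, the receptor tyrosine kinase Axl, with fresh array B under the floor, rose from 251, 195 and 219 to 1037, 1037 and 1042 (log2 change 2.08 ± 0.0918, adjusted p = 5.62e-10). Ankrd1, a nuclear ankyrin protein, reached only 218, 231 and 229.6, at least 1.13-fold higher.

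Genes of coagulation and pericellular proteolysis included some of the widest changes. F3 (tissue factor, printed above) rose from 2287, 2364 and 2042 to 10534, 11397 and 11367, a log2 change of 2.30 ± 0.0580 (adjusted p = 4.22e-12). Plaur, the urokinase receptor, read 74.8, 67.9 and 77.2 in fresh and 915, 1118 and 997 in incubated tissue, at least 5.05-fold higher. Inhibitors rose too: Tfpi2, a Kunitz inhibitor of plasmin, went from 21.9, 4.0 and 38.3 to 1024, 1069 and 916, at least 5.01-fold higher. Serpinb2, an inhibitor of plasminogen activators, went from 26.6, 2.5 and 8.6 to 405, 615 and 548, at least 2.61-fold higher. Of 19 genes of the list measured on all 6 arrays (36 on the array, 23 past the filter), 10 rose, 3 fell and 6 were not called (median 0.23).

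Stress, damage and lipid mediator genes were mixed. Of 15 p53 target and damage response genes measured on all 6 arrays (21 on the array, 17 past the filter), 12 rose and 3 fell (median 0.77). Gadd45a, a stress sensor that slows the cell cycle, had 78.3, 90.8 and 11.0 in fresh and 423, 411 and 419 in incubated tissue, at least 2.09-fold higher. Its log2 change, which rests on fresh signals under the floor, had a wide error for this data set, 2.43 ± 0.291. Fresh array C was far below the other fresh arrays. The sestrins, inhibitors of mTORC1 signalling, went opposite ways. Sesn2 reached 449, 416 and 479 from under the floor, at least 2.24-fold higher, and Sesn1 fell from 3970.0, 3995 and 3878 to 1126, 1122 and 1566 (log2 change -1.63 ± 0.106). Trp53inp1, a p53-induced nuclear protein, fell by 1.41 ± 0.0645.

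Cell death regulators measured on all 6 arrays comprised 4 rises and 8 falls among 13 (22 on the array) under the deposited scaling, and the 14 that passed turned to 9 rises and 3 falls under the control scaling. Birc3, an inhibitor of apoptosis induced by NF-kB, rose from 548, 514 and 527 to 2197, 2100.2 and 1964 (log2 change 1.91 ± 0.0689). The pro-survival gene Bcl2 fell from 3892, 3866 and 4187 to 1517, 1794 and 1539 (log2 change -1.29 ± 0.0773), and the pro-apoptotic gene Bcl2l11, or Bim, fell by 1.08 ± 0.137. The iron and haem list gave 7 rises and 5 falls among 15 genes measured on all 6 arrays (22 on the array, 18 past the filter). Hmox1, which breaks down haem, reached 364, 434 and 485 from 21.1, 58.3 and 29.2, at least 2.14-fold higher. The metalloreductase Steap2 rose by 1.66 ± 0.0621. The prostanoid list gave 2 rises and 4 falls among 7 so measured (21 on the array). The 12 that passed gave 5 rises and 5 falls as deposited, and 7 rises and 4 falls under the control scaling. Its genes with the widest changes were all under the floor in 1 group except the transporter Slco2a1, which rose from 304, 347 and 288 to 2683, 2468 and 2545 (log2 change 2.92 ± 0.0713, adjusted p = 3.21e-12). Ptgs2 and Ptges, which make prostaglandin E2, reached means of 267 ± 54.4 and 582 ± 47.5, at least 1.33-fold and 2.91-fold higher. Hpgd, which breaks it down, fell from 345, 343 and 343 to under the floor, at least 1.72-fold lower.

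Dual specificity phosphatases, a family that includes feedback phosphatases of MAP kinases, leaned upward. Of 9 dual specificity phosphatases measured on all 6 arrays (24 on the array, 16 past the filter), 5 rose and 2 fell. Dusp4 rose from 267, 253 and 227 to 939.7, 956 and 808 (log2 change 1.73 ± 0.0962), and Dusp14 reached 275, 301 and 263 from under the floor, at least 1.40-fold higher. Dusp26, known from neural tissue, went from 223, 218 and 344 to 3.3, 9.9 and 14.9, at least 1.31-fold lower. Growth factor receptors leaned the other way, with 4 rises and 13 falls among 22 measured on all 6 of 31 on the array, though the 24 that passed gave 10 of each under the control scaling. Osmr, the oncostatin M receptor, rose from 231, 205 and 241 to 1590.3, 1717 and 1657 (log2 change 2.71 ± 0.0702, adjusted p = 4.97e-12). Lifr, the receptor of the related leukaemia inhibitory factor, fell from 4349, 3698 and 3729.5 to 1066, 1040.5 and 1065 (log2 change -1.86 ± 0.0664, adjusted p = 8.26e-11).

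The largest falls among genes measured on all 6 arrays came from transport, metabolism and nerve. Car3, a cytosolic carbonic anhydrase found in fibrocytes of the spiral ligament, read 19232, 18795 and 19664 in fresh and 799, 710.1 and 778 in incubated tissue (log2 change -4.60 ± 0.0815, adjusted p = 2.54e-13). Slc4a11, a transporter of the bicarbonate family also found in fibrocytes, went from 6643, 6606 and 6879 to 425, 379 and 432 (log2 change -3.93 ± 0.0746, adjusted p = 4.10e-13). Gjb2, connexin 26, went from 6845, 6948 and 6777 to 595, 589 and 619 (log2 change -3.44 ± 0.0557, adjusted p = 1.07e-13). All 3 are on the list of fibrocyte markers. Ces1d, a carboxylesterase of lipid and drug metabolism, fell from 5129, 5336 and 5737 to 249, 241 and 242 (log2 change -4.30 ± 0.119, adjusted p = 8.62e-12). Prss36, a secreted serine protease, had 3100.0, 3050.3 and 3066 and then 233, 215 and 211 (log2 change -3.62 ± 0.0750, adjusted p = 8.19e-13). In each of these genes the lowest fresh array was more than 10 times the highest incubated array.

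Genes known from neurons or glia were among the same 15. Ndrg4 went from 12439, 11955 and 12629 to 826, 924 and 935 (log2 change -3.74 ± 0.0600, adjusted p = 1.04e-13). Pcp4, a calmodulin-binding peptide of neurons, went from 5958, 5981 and 5809.9 to 539, 508 and 564 (log2 change -3.39 ± 0.0577). Gpm6a, a neuronal membrane glycoprotein, went from 2768, 2842 and 2917 to 245, 248 and 247 (log2 change -3.37 ± 0.0638). Ion transport subunits also fell: Fxyd6, a modulator of the sodium pump, by 3.17 ± 0.105, Kcne2, a potassium channel beta subunit, by 3.08 ± 0.114, and Atp1b2, a beta subunit of the sodium pump, by 3.04 ± 0.0679. Maf, a large basic leucine zipper factor, fell from 2229.9, 2142 and 2003 to 227, 212 and 221 (log2 change -3.10 ± 0.0759). Fam43a, a gene of little known function, fell from 5059.5, 4993 and 5294 to 524, 619.7 and 585 (log2 change -3.08 ± 0.0845).

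Some genes known from neutrophils and other blood cells were lower; they were put together after their values were seen, and no list of them was tested. The macrophage marker list, given below, held more rises than falls. Camp, a granule peptide of neutrophils, and Chil3, a chitinase-like protein of myeloid cells, had log2 changes of -3.11 ± 0.117 and -3.39 ± 0.0974. S100a8 and S100a9, which form the calprotectin dimer of neutrophils, fell from 7161, 6690.4 and 5884 to 1653, 1646 and 1476 and from 5478, 5820.2 and 5826 to 796, 774 and 882 (log2 changes -2.02 ± 0.125 and -2.76 ± 0.141). Both are also on the list of wound keratinocyte genes, of which 6 rose and 2 fell among 9 measured on all 6 arrays (31 on the array, 13 past the filter), so the 2 falls of that list are genes known from neutrophils too. Ltf, or lactoferrin, an iron-binding protein of neutrophil granules on the iron list, fell from 1256, 1015 and 1114 to 348, 318 and 283 (log2 change -1.73 ± 0.132). The neutrophil metalloproteinases Mmp8 and Mmp9 were at least 1.66-fold and 1.62-fold lower. Ptprc, or CD45, which marks all nucleated blood cells, fell from 822, 929.6 and 731 to 359.6, 418 and 349.6 (log2 change -1.07 ± 0.104).

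Many bright fresh genes were under the floor on all incubated arrays. Gjb6, connexin 30, the partner of Gjb2 in cochlear gap junctions, read 6659.7, 6327 and 6348 in fresh and 142, 147 and 135 in incubated tissue, at least 32.2-fold lower. Cplx1, a presynaptic complexin, read 6037, 6347 and 6462 and then 61.1, 60.1 and 105, at least 31.4-fold lower. Nat8l, the enzyme that makes N-acetylaspartate, read 5083, 5012 and 5143 and then 98.6, 84.7 and 80.3, at least 25.4-fold lower. None of these incubated values reached the floor, while all fresh arrays were far above it. Ucma, a protein of cartilage matrix, read 3881, 3668 and 3744 and then 10.7, 46.6 and 49.2, at least 18.8-fold lower. A2m, a broad protease inhibitor of plasma, read 2856, 2786 and 3014 and then 24.1, 22.4 and 35.6, at least 14.4-fold lower. Pvalb, a calcium buffer of hair cells and neurons, and Cntn1, an axonal adhesion molecule, were at least 21.0-fold and 15.8-fold lower.

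Cell type markers moved with these falls. The 10 epithelial markers were at 200 or more on all 6 arrays, and 8 rose and 2 fell, with summed signals of 62645.0 to 66726.1 on the fresh and 90750.1 to 93043.6 on the incubated arrays. Krt8 and Krt18, keratins of simple epithelia, rose by 2.16 ± 0.0530 and 1.72 ± 0.0540. The transporter Slc26a7 and the homeobox gene Otx2 were the 2 falls, and 1 of them fell 2-fold or more. The 8 rises include keratins and claudins of epithelia in general, so the higher sum does not describe Slc26a7 and Otx2. Of 7 mesothelial markers, Upk3b, Wt1, Lrrn4 and Bnc1 were under 200 on all 6 arrays, so the epithelial markers of the labelled tissue were all measured and most mesothelial markers were not. The mesothelial sum was 2003.5 to 2241.6 on the fresh and 5455.0 to 5853.6 on the incubated arrays. Most of it was Krt19, with means of 1770 ± 83.7 and 4295 ± 178, a keratin that the list shares with the epithelial one. All 8 fibrocyte markers passed the filter and fell, 4 of them to under the floor, and their sum went from 71272.6 to 72750.8 on the fresh to 2620.2 to 2752.5 on the incubated arrays. The 9 neuron markers summed to 24030.1 to 25284.8 and then 408.1 to 539.8, and 8 of the 9 were above the floor on the fresh arrays alone.

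Markers of other cells near the membrane moved too. Hair cell markers summed to 5048.0 to 5547.8 in fresh and 214.7 to 252.3 in incubated tissue, with Atoh1, Slc26a5, Pou4f3 and Gfi1 under 200 throughout. Most of that fresh sum was Pvalb, which neurons also express, with a mean of 4206 ± 319, against 639 ± 107 for Otof and 221 ± 13.9 for Myo7a. Sums of strial marginal cell markers went from 22993.8 to 24077.6 down to 4713.4 to 4873.3, with Bsnd under 200 on all 6 arrays. Most of that fresh sum was Atp1b2 and Slc12a2, the latter also known from fibrocytes, with means of 11987 ± 396 and 10001.5 ± 327. Kcnq1 and Kcne1 had fresh means of 868 ± 14.7 and 277 ± 49.8. Skeletal muscle markers, foreign to the membrane, went from 1756.4 to 1932.9 down to 184.2 to 278.9, and Myh1, a fast muscle myosin, from 732, 788 and 691 to 1.4, 3.7 and 26.1. The muscle markers Myh4 and Tnnt3 were under 200 on all 6 arrays. Erythrocyte markers went from 3315.2 to 3677.2 down to 190.6 to 240.7, melanocyte markers from 3019.2 to 3415.5 down to 966.5 to 1007.1 and osteoblast markers from 653.3 to 692.7 down to 122.8 to 160.2. Only 4 of 7 erythrocyte markers were on the array, with Hba-a1 under 200 on all 6 arrays. The largest part of their fresh sum was Slc4a1, with a mean of 1807 ± 70.9, from a probe set marked as a possible match to several transcripts. Of the melanocyte markers 4 of 6 (Tyr, Tyrp1, Pmel and Mlana) were under 200 on all 6 arrays, and of the osteoblast markers 5 of 6, all but Dmp1. Endothelial markers went from 3550.0 to 3946.9 down to 1787.2 to 1805.0, with Pecam1, Cdh5 and Tie1 under 200 on all 6 arrays. Kdr, the VEGF receptor, made up much of the fresh sum, with a mean of 1916 ± 125 in fresh and 364 ± 27.2 in incubated tissue. Emcn had means of 986.5 ± 28.0 and 876.0 ± 7.85 and changed by -0.17, or by 0.17 under the control scaling. Of the 3 endothelial markers that passed, 2 were lower as deposited, and 1 was higher and 1 lower under the control scaling. Macrophage markers rose from 7152.4 to 7279.2 up to 8243.6 to 8785.0, with 4 rises and 1 fall among the 7 measured on all 6 arrays. Csf1r was the fall, and Cd68, under the floor on all fresh arrays, was at least 8.23-fold higher. Schwann cell markers summed to 5920.3 to 6086.9 on the fresh and 5704.4 to 5966.6 on the incubated arrays. Only 3 of 6 were on the array, with Mag under 200 on all 6 arrays, so that sum was mostly Mbp and Pmp22. The brightest probe set of Mbp, a myelin protein, rose by 0.11, while the median over its probe sets changed by -2.64. The near level sum therefore rests on the probe set used for Mbp. Pmp22, another myelin protein, changed by -0.23, or by 0.11 under the control scaling. In bulk tissue, fewer cells of a type and less RNA per cell cannot be told apart. The part of lost neighbouring tissue in the genome-wide falls was not tested.

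**Figure D5:**
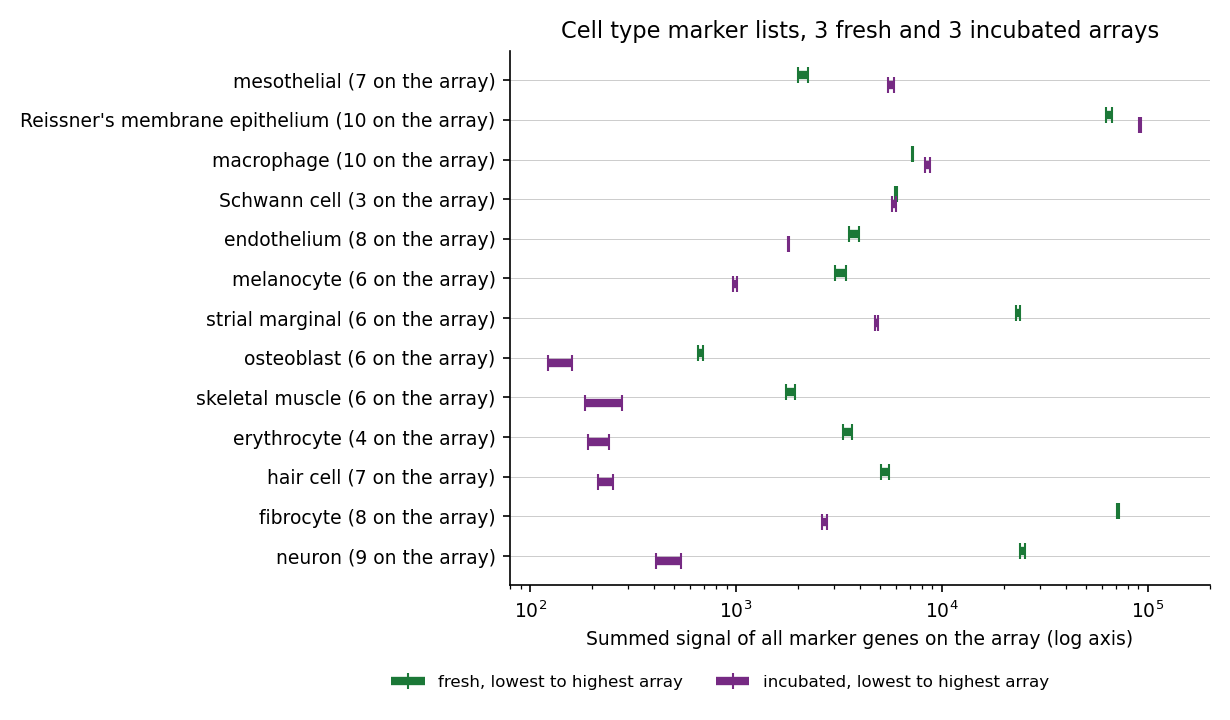
Summed signal of all genes of each cell type marker list on the array, on a log axis, as the range over the 3 fresh (green) and the 3 incubated arrays (purple). Neuron, fibrocyte, hair cell, erythrocyte and skeletal muscle lists lie far lower after culture, while epithelial, mesothelial and macrophage lists lie higher. The mesothelial sum is mostly Krt19, also on the epithelial list, and 2 of the 10 epithelial markers fell.

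The signalling lists below were read beside falls in fibrocyte and neuron markers, whose part in them was not tested. Of 11 Notch pathway genes measured on all 6 arrays (24 on the array, 15 past the filter), 1 rose and 10 fell (median -0.48). The receptor Notch1 fell from 2474, 2635 and 2630.5 to 806, 725 and 898 (log2 change -1.64 ± 0.0776, adjusted p = 1.08e-09). The Hes-related targets Heyl, Hey1 and Hey2 read means of 574 ± 44.8, 277 ± 36.2 and 269 ± 36.2 in fresh tissue and were under the floor after culture, at least 2.87-fold, 1.38-fold and 1.35-fold lower. Under the control scaling the 15 genes that passed gave 1 rise and 8 falls.

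Wnt pathway genes gave 5 rises and 15 falls among 23 measured on all 6 arrays (43 on the array, median -0.43), and the 32 that passed gave 8 rises and 17 falls under the control scaling. Among the widest falls were those of secreted modulators and a receptor. The inhibitors Sfrp5 and Frzb read 778, 682 and 688 and 566, 624 and 530.5 in fresh and 36.5, 60.4 and 89.5 and 64.8, 43.1 and 56.6 in incubated tissue, at least 3.58-fold and 2.87-fold lower. The amplifier Rspo3 and the receptor Fzd9 were at least 1.56-fold and 2.64-fold lower. Genes that act for the pathway and genes that act against it were both among these falls. BMP ligands differed among themselves. Bmp4 and Bmp7 fell from 1550.4, 1761 and 1696 to 322, 376 and 251 and from 966, 840.4 and 894 to 291, 330.1 and 379.7 (log2 changes -2.30 ± 0.126 and -1.36 ± 0.137). Bmp6 fell to under the floor, at least 4.26-fold lower, while Bmp2, at the floor in fresh tissue, rose from 180.4, 204 and 192 to 472, 704 and 427 (log2 change 1.31 ± 0.163). Of 19 genes of the BMP and Hedgehog list measured on all 6 arrays (33 on the array), 5 rose and 11 fell, and the 24 that passed gave 10 rises and 8 falls under the control scaling.

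Of 22 Fgf ligands on the array 4 passed the filter; the 3 measured on all 6 arrays fell and Fgf12 was above the floor on the fresh arrays alone. Fgf1 went from 2326, 2382 and 2448 to 413, 449 and 454 (log2 change -2.36 ± 0.0632), and Fgf9 and Fgf13 changed by -0.57 ± 0.0483 and -1.87 ± 0.110. The retinoid and thyroid list gave 3 rises and 8 falls among 12 measured on all 6 arrays (23 on the array, 14 past the filter, median -0.42). Retinoid enzymes split by isoform. Aldh1a1, which makes retinoic acid, fell from 5844, 5894 and 5302 to 1513, 1369 and 1554 (log2 change -1.92 ± 0.0578), and Aldh1a3 fell to under the floor, at least 1.76-fold lower. Aldh1a2, which catalyses the same step, rose from 1869, 1666 and 1631 to 4199.8, 3914 and 3817 (log2 change 1.19 ± 0.0615). Ttr, the carrier of thyroxine and of retinol-binding protein, read 24340.1, 23311 and 25556 in fresh tissue and 4888, 4819.6 and 4806 after culture (log2 change -2.33 ± 0.0450, adjusted p = 4.71e-13).

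Transcription factor families leaned down. Of 7 Sox genes measured on all 6 arrays (21 on the array, 10 past the filter), 6 fell and 1, Sox4, rose from 978, 946 and 926 to 2559, 2801 and 2388 (log2 change 1.41 ± 0.0666). Sox2, a marker of cochlear supporting and glial cells, read 622, 599.5 and 574 in fresh and 15.8, 36.8 and 21.2 in incubated tissue, at least 2.99-fold lower. Forkhead genes gave 1 rise and 9 falls among 12 so measured of 38 on the array, with Foxo1 at -1.08 ± 0.0555 and Foxp1 at -0.95 ± 0.0441. None of the 36 Hox genes on the array passed the filter. Klf15, a glucocorticoid-responsive Kruppel-like factor, fell from 3884, 4129 and 4228 to 579, 627 and 526 (log2 change -2.76 ± 0.0699, adjusted p = 4.35e-12), while Klf6 rose by 1.32 ± 0.0669. The large Zfp family of zinc finger genes gave 24 rises and 80 falls among 162 measured on all 6 arrays (median -0.23). Its balance of calls rests on the scaling: the 213 that passed gave 28 rises and 114 falls as deposited, and 73 rises and 57 falls under the control scaling. Their median log2 change under the control scaling was 0.06, against 0.29 over all genes.

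All 7 potassium channel genes measured on all 6 arrays were called lower, and the other 9 that passed, of 84 on the array, were above the floor on the fresh arrays alone. Kcnj16, an inward rectifier, read 1656, 1544 and 1635 in fresh and 42.4, 37.1 and 44.7 in incubated tissue, at least 8.06-fold lower. Kcna1, Kcna2 and Kcnc1, voltage-gated channels of axons and fast-firing neurons, were at least 6.18-fold, 5.22-fold and 5.52-fold lower. The 6 synaptotagmins that passed, calcium sensors of vesicle release, were all above the floor on the fresh arrays alone, as were 8 of 9 neuron markers. Syt7 and Syt2 read 932, 1003 and 1034 and 656, 581 and 562 in fresh tissue and were at least 4.95-fold and 3.00-fold lower. Kcnq1 and Kcne1, the channel pair through which strial marginal cells secrete potassium, fell by 1.33 ± 0.0910 and to under the floor, from means of 868 ± 14.7 and 277 ± 49.8. Under the control scaling 13 of the 16 genes that passed were lower and 1 higher. Of 14 carbonic anhydrases on the array 8 passed the filter, and the 4 measured on all 6 arrays gave 1 rise and 3 falls. Car2 fell from 7451, 7939 and 7971 to 972, 1045 and 1012 (log2 change -2.91 ± 0.0623) and Car14 to under the floor, at least 11.3-fold lower, while Car13, named after its value was seen, was the rise (log2 change 0.78 ± 0.0609).

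Solute carriers gave 41 rises and 57 falls among 136 measured on all 6 arrays as deposited (320 on the array). The 173 that passed turned from 49 rises and 85 falls to 83 rises and 61 falls under the control scaling. Slc12a2, the cotransporter of sodium, potassium and chloride known from marginal cells and fibrocytes, fell from 9814, 9812 and 10379 to 2927, 2968 and 2929 (log2 change -1.75 ± 0.0465). Slc8a3, a sodium-calcium exchanger, and Slc13a4, a sulphate transporter, were at least 4.51-fold and 4.28-fold lower.

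Matrix genes differed by family. Collagens measured on all 6 arrays gave 7 rises and 6 falls of 16 (42 on the array), and 7 more were above the floor on the fresh arrays alone. The cartilage collagens fell together: Col9a1, Col9a2 and Col9a3 had means of 799.7 ± 19.1, 348 ± 18.7 and 2041 ± 71.5 in fresh tissue and 48.2 ± 5.11, 5.3 ± 1.37 and 186 ± 16.1 after culture. Col27a1 fell from 2648, 2693 and 2555 to 228, 179 and 196 (log2 change -3.52 ± 0.0890). The 6 laminins that passed, of 10 on the array, were all measured on all 6 arrays. They gave 2 rises, 3 falls and 1 without a call as deposited, and 4 rises and 2 falls under the control scaling. Lama5, found in epithelial basement membranes, and Lamc1 rose by 0.52 ± 0.0616 and 0.51 ± 0.0986. Lama2 and Lamb2, known from muscle and nerve, fell from 1234, 1268 and 1168 to 327, 276 and 288 and from 1367, 1322 and 1148 to 631, 649 and 574 (log2 changes -1.93 ± 0.0909 and -1.01 ± 0.0809). Of the metalloproteinases measured on all 6 arrays, Mmp14 rose by 0.32 ± 0.0584, while Mmp2 changed by -0.29 ± 0.117 as deposited and by 0.06 under the control scaling. The fresh and incubated arrays of Mmp2 overlapped, with 3106 on fresh array A and 3138 on incubated array C.

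Adhesion and guidance genes fell more often than they rose under the deposited scaling. The guidance and semaphorin list gave 7 rises and 11 falls among 24 measured on all 6 arrays (44 on the array), and the 32 that passed turned from 8 rises and 17 falls to 13 rises and 12 falls under the control scaling. Slit2, a repellent of axons, and Sema7a were at least 2.03-fold and 3.24-fold lower, and Sema6d fell from 1590.0, 1630.5 and 1683 to 368, 409 and 338 (log2 change -2.05 ± 0.0740). Adhesion receptors of the G protein-coupled class gave 6 falls and 1 without a call among 7 so measured (22 on the array, 10 past the filter), with Adgrg6, needed by Schwann cells for myelination, at -1.42 ± 0.126. Receptor phosphatases gave 2 rises and 7 falls among 10, with Ptprd at -1.78 ± 0.108. Protocadherins went both ways: Pcdh20 fell from 4115, 4099 and 4321 to 1568, 1720.5 and 1555 (log2 change -1.36 ± 0.0563) and Pcdh19 rose from 669.7, 669 and 643 to 1789, 1758 and 1710.2 (log2 change 1.37 ± 0.0623). The tetraspanins Tspan14 and Tspan8 likewise changed by 1.73 ± 0.0720 and -1.34 ± 0.0730. Among cadherins, Cdh1, or E-cadherin, rose by 0.54 ± 0.0569 and Cdh2, or N-cadherin, read 269, 279.5 and 240.0 in fresh and 48.9, 60.3 and 65.5 in incubated tissue, at least 1.31-fold lower.

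Cytochrome P450 genes gave 2 rises and 7 falls among 9 measured on all 6 arrays, led by Cyp2d22, which fell from 1474, 1491 and 1628 to 366, 326 and 349.7 (log2 change -2.04 ± 0.0725). Glutathione transferases gave 1 rise and 7 falls among 11, with Gstk1 at -2.06 ± 0.103 and Gstm2 at -1.54 ± 0.0937, though the 13 that passed turned from 2 rises and 8 falls to 7 rises and 6 falls under the control scaling. Aldehyde dehydrogenases gave 4 rises and 7 falls among 11, and Aldh18a1, which makes proline precursors, rose by 1.41 while Aldh6a1, of valine breakdown, fell by 1.83. In lipid synthesis, Thrsp, a regulator of fatty acid synthesis, read 803, 756 and 812 in fresh and 39.5, 33.7 and 29.7 in incubated tissue, at least 3.95-fold lower. Srebf1, its transcriptional driver, fell by 1.01 ± 0.0536, and the acyl-CoA synthetases Acsl5 and Acsl3 changed by 1.71 ± 0.0445 and -1.14 ± 0.0647. The fatty acid synthesis list gave 4 rises and 9 falls among 16 measured on all 6 arrays, and the 17 that passed gave 8 rises and 4 falls under the control scaling. Fatty acid oxidation was near even, with 7 rises and 6 falls among 19 (21 on the array), and turned to 14 rises and 3 falls among the 20 that passed under the control scaling. Acadl, a long-chain acyl-CoA dehydrogenase, rose by 0.88 ± 0.0535 and Acaa2, the last enzyme of the cycle, fell by 1.09 ± 0.0620.

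Lysosomal genes, splicing factors and ubiquitin conjugating enzymes held more rises than falls. Of 30 lysosome and cathepsin genes measured on all 6 arrays, 18 rose and 6 fell (median 0.27). Psap, the precursor of the saposins, fell from 18113, 16895 and 17719.7 to 9105, 8810.0 and 8523 (log2 change -0.99 ± 0.0449), and Asah1, acid ceramidase, rose by 0.98 ± 0.0510. Gpnmb, a lysosomal glycoprotein, was at least 2.38-fold higher. Ctsf, a cysteine cathepsin, fell from 1436, 1465 and 1453 to values at the floor, 208, 192 and 186. Of 44 splicing genes, all measured on all 6 arrays, 25 rose and 10 fell (median 0.20), with Snrpf at 1.61 ± 0.154, Hnrnpd at 1.07 ± 0.0578 and the kinase Clk1 at -1.22 ± 0.0750. Of 24 E2 ubiquitin conjugating enzymes measured on all 6 arrays (33 on the array), 16 rose and 3 fell (median 0.39), and Ube2a, which acts with RAD18 in DNA repair, rose from 1109.5, 1127 and 1101 to 3269, 3299 and 3313 (log2 change 1.54 ± 0.0458). Cilium genes leaned down, with 1 rise and 7 falls among 11 of 31 on the array, and Bbs4, of the BBSome, changed by -1.20 ± 0.0665.

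The probe sets with the highest signals had narrower changes, and signals of different probe sets do not order transcripts by abundance. Of the 10 highest on the fresh arrays, Rnase1, a secreted ribonuclease, had the widest change, from 27222, 28137 and 29937 to 13198, 12202 and 13544 (log2 change -1.13 ± 0.0548, adjusted p = 1.33e-09). Crhbp, the binding protein of corticotropin-releasing hormone, fell from 26116, 27939 and 28965 to 19392, 16817 and 18330.3 (log2 change -0.61 ± 0.0611). Lgals1, a galectin, had the highest mean signal on the incubated arrays and rose from 17755, 18720.2 and 17613 to 31559, 28724 and 29290.1 (log2 change 0.73 ± 0.0576, adjusted p = 1.28e-07). Uqcrb, Rps29 and Eef1a1 were called lower by 0.19, 0.19 and 0.27 as deposited, and turn to 0.16, 0.16 and 0.08 under the control scaling. The share of 2-fold changes also varied with the level, over all genes that passed the filter. Among 2961 genes with a mean signal under 500, 6.65% rose and 23.2% fell 2-fold, and among 274 genes over 10000, 2.19% and 4.01%. Of the 1308 falls of 2-fold, 645 were of genes above the floor on the fresh arrays alone. Of the 726 such rises, 173 were of genes above it on the incubated arrays alone. The filter fixes the direction of these genes, and its part in the shares at low signal was not tested.

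Some of these genes had other levels in explants kept with dexamethasone, given here side by side without a test and chosen after their values were seen. Saa3 had a mean of 1108 ± 65.2 in incubated and 7339 ± 196 in dexamethasone-treated explants, and Cited1 5448 ± 404 and 2924 ± 202. Timp1 had 3132 ± 152 and 1677 ± 99.4, and Trp53inp1 2126 ± 103 and 4162 ± 194, nearer its fresh mean of 5700.2 ± 480.3.

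Genes lay on both sides of the filter without a gap. The third-highest of 6 signals was 200.0 for Gm31679, 200.2 for Nadsyn1, 200.3 for Sdcbp2 and 200.4 for Mctp1, just inside. It was 199.8 for Zfp113, 199.7 for Fjx1 and Plekha4 and 199.5 for Hexim2, just outside.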

How the data were processed

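RNA of Reissner's membrane was hybridised to Affymetrix mouse arrays after 2 rounds of amplification, per the labels' protocols. The deposited intensity (signal) of each probe set had been summarised and scaled by the authors (target 500, normalization factor 1); the software is not given in the sources used here. Values are linear and give no read depth. From them, log2(signal + 32) was fitted over all 9 arrays with limma 3.58.1 in R 4.3.3 (group means, trended eBayes) on 18152 of 45101 probe sets with a signal of 200 or more on at least 3 of the 6 arrays compared, 64 controls left out. P-values were adjusted by Benjamini-Hochberg over all of these. Of them, 16102 carried 1 symbol, 481 several and 1569 none in GEO's platform annotation, updated through RefSeq (GRCm38.p6), and the brightest probe set stood for its gene. The genes named, apart from those of highest signal, were called. Except for Mmp2, their arrays did not overlap between groups. They are the 15 largest changes each way among genes measured on all 6 arrays and the 15 brightest genes measured in 1 group only. The 10 highest signals per group and up to 4 of the widest changes per list or family were also named. Other exceptions are named in the text. The contrast, lists and rules were chosen with earlier results of these data known. The fit was tested on simulated data. Python 3.11.15, pandas 2.3.3, NumPy 2.4.6, SciPy 1.17.1 and matplotlib 3.10.9 made summaries and figures. The alternatives tried changed the scaling, pseudocount, filter, probe sets and arrays used.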

Additional observations from a re-analysis of the deposited data

How the results depend on the processing

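The contrast was recomputed under 22 alternatives, and 80 of 88 counts stayed within 1.5 times their value. Scaling to the hybridization controls gave 5566 genes called higher, 2485 lower and 1499 higher by 2-fold. Without a filter on low signals 2018 genes fell 2-fold, and with a signal of 200 required on all 6 arrays 584 did. Testing against a 2-fold change (limma's treat) left 425 genes higher and 895 lower. Leaving out 1 array at a time gave 3469 to 3493 genes called higher, 3968 to 4007 lower, 729 to 742 higher by 2-fold and 1302 to 1318 lower by 2-fold. Array letters are shared between groups, and the deviations of same-letter arrays correlated at -0.066, -0.064 and 0.016. The spread between chips of pooled tissue may be technical, so these values cannot settle whether the letters pair the arrays. With the letter as a replicate block 3606 genes were called higher and 4143 lower, and 726 and 1308 changed 2-fold.

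Of 205 genes named, 162 kept their direction and call under every alternative in which they were measured. Directions turned under the control scaling for Uqcrb (0.16), Rps29 (0.16), Eef1a1 (0.08), Oaz1 (0.13), Oaz2 (0.03), Pmp22 (0.11), Emcn (0.17) and Mmp2 (0.06). Under quantile normalization Uqcrb (0.08) and Rps29 (0.04) turned, and with the median over probe sets Uqcrb (0.27), Oaz2 (0.21), Mbp (-2.64) and Eif1ax (-0.08). The cause was not tested. Other than under the control scaling and treat, the median change of 61 of 77 lists and families kept its sign. Genes under 200 in 1 group have only a bound there, 3 arrays a group limit the precision, and chips of pooled tissue do not show the spread between animals or cultures.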

Other observations

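Genes that lie next to each other on a chromosome (RefSeq order, GRCm38.p6) changed 4-fold the same way in 4 pairs upward and 23 pairs downward. The 4-fold sets held 129 genes upward and 461 downward, and 355 of the 461 were above the floor on the fresh arrays alone. The counts of upward and downward pairs are therefore not comparable. The upward pairs were the chemokines Ccl2 and Ccl7 (log2 changes 4.93 and 4.43), the chemokines Cxcl1 and Cxcl2 (4.18 and 3.08), the metallothioneins Mt2 and Mt1 (2.47 and 2.30), and Tnfrsf12a with Cldn6. The downward pairs included the connexins Gjb2 and Gjb6, the carbonic anhydrases Car3 and Car2, the small leucine-rich proteoglycans Prelp and Fmod (-2.73 and -3.04) and the neutrophil proteases Prtn3 and Elane (-3.40 and -2.44). Some of these genes were under the floor in 1 group, among them Ccl2 and Cxcl1, at least 11.4-fold and 7.84-fold higher. The probe set of Cxcl1 is marked as a possible match to several transcripts. No share over other neighbouring genes was computed, and pairs of related genes can share probe sequence.

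Of 3078 genes with several probe sets at a signal of 200 or more on all 6 arrays, 252 had at least 2 probe sets changed 2-fold in 1 direction and 6 had probe sets changed 2-fold in opposite directions. These 6 were Nme1 (log2 changes 1.87 and -2.34), Eif1ax (1.48 and -1.73), Rpl22 (1.87 and -1.03), Nudt21 (1.11 and -1.34), Tardbp (1.13 and -1.03) and Btf3l4 (1.08 and -1.08). The probe sets behind -2.34 for Nme1, -1.03 for Rpl22, -1.34 for Nudt21 and 1.13 for Tardbp are marked as possible matches to several transcripts. Calls in opposite directions at any size were found in 449 genes.

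The median span of a gene from its RefSeq start to end was 10879 bases for genes called 4-fold higher, 32096 for genes called 4-fold lower and 25213 over all tested genes with a span. Of the 1569 probe sets without a symbol, 112 rose and 266 fell 2-fold.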
